A study of Mus musculus with 6 samples.

Results

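The collagen chains are the 44 genes of 24539 in the deposited table whose symbol is Col, a number, the letter a and a number. They were examined in eWAT, the white adipose tissue that lies along the epididymis in male mice. Bulk RNA was sequenced from 3 C57BL/6 mice labelled Jmjd8-KO, replicates 1 to 3, and 3 wild-type C57BL/6 mice (WT), replicates 1 to 3. Both groups were kept on a high-fat diet (HFD) with no other treatment. The sources used here do not state the knockout allele, the cells it reaches, the age or the length of the diet. The comparison asks which genes of this depot differ in expression between the genotypes, and here which collagen chains do.

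Collagens are extracellular proteins in which 3 chains wind into a triple helix, which needs a glycine in each triplet of residues. Fibrillar collagens (types I, III, V and their relatives) are laid down as cables that bear tension. Type IV collagen, with the multiplexins XV and XVIII, belongs to the basement membrane, the thin sheet that wraps each adipocyte and blood vessel. Type VI forms beaded microfilaments between these structures and is abundant in fat, where its accumulation in obesity has been linked to fibrosis. The chains are grouped below as 11 fibrillar, 8 basement membrane (Col4a1 to Col4a6, Col15a1 and Col18a1), 6 type VI and 19 other chains.

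Total counts were 17598696 to 20598473 per library. Jmjd8 was at 39.4, 57.7 and 42.3 CPM (counts scaled to library size with TMM factors) in the knockout mice, given here and below in the order of their numbers, against 112, 116 and 111 CPM in WT. It fell in all 3, by a log2 fold change of -1.28 (SE 0.144, edgeR adjusted p = 0.0193). Adipocyte markers were abundant in all 6 libraries, with a summed level of 20843 to 27039 CPM over 10 genes. A library of each group stood apart. WT replicate 1 held neuronal transcripts, 961 CPM over 10 markers against 17.7 to 22.9 CPM in the other 5 libraries. Jmjd8-KO replicate 2 differed from the other knockout mice over many genes, collagens among them, so the log2 fold changes of the chains and the counts of the gene lists are given with and without it.

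Of the 44 chains, 32 passed the filter on low counts and were tested, and 1 of them changed. Col6a6 rose in Jmjd8-KO fat, close to the threshold. Of all 14322 genes tested, 0.789% passed as higher, 1.33% as lower and 2.12% in either direction. No chain fell, by edgeR's quasi-likelihood test with Benjamini-Hochberg adjustment, and at an unadjusted p under 0.05 the same test gave 10 chains higher and 0 lower, where it gave 8.99% of all genes higher and 10.1% lower. DESeq2 called 5 chains higher and 0 lower, where it called 3.51% of all genes higher and 3.74% lower, and limma voom with quality weights called 6 higher and 0 lower, against 6.97% and 7.21%. Of the 32, 28 had a positive log2 fold change, beside 49.1% of all genes tested. The chains share these libraries and are not independent. The median of the 32 chains was 0.24, beside -0.01 over all genes tested. Without Jmjd8-KO replicate 2 those 32 chains had a median of 0.08, with 18 positive and 14 negative.

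The classes differed in how far that median rested on 1 mouse. The 8 basement membrane chains had a median log2 fold change of 0.42 with all 6 mice and 0.29 without Jmjd8-KO replicate 2, and all 8 were positive both ways. The 5 tested type VI chains had medians of 0.13 and 0.18, and all 5 were positive both ways. For the 8 tested fibrillar chains the medians were 0.23 and -0.05, and 5 of the 8 were negative without that mouse. The 11 tested other chains had 0.15 and -0.15. Without WT replicate 1 the medians were 0.37 for basement membrane, 0.07 for type VI, 0.26 for fibrillar and 0.07 for other chains. Col6a5, of type VI, was then at -0.0085. The 3 knockout values lay above the 3 WT values for 7 of 8 basement membrane, 2 of 8 fibrillar, 2 of 5 type VI and 1 of 11 other chains, and below them for none. Over all genes tested the knockout values lay wholly above in 14.2%, wholly below in 15.3% and one or the other in 29.5%.

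**Figure D1:**
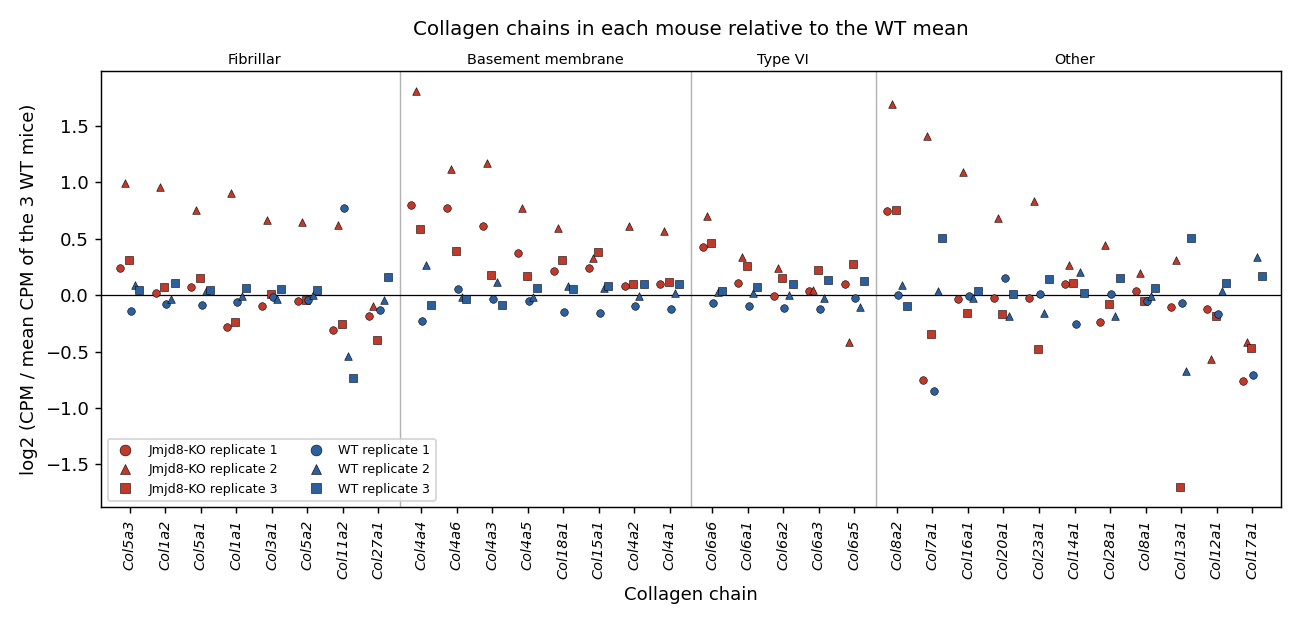
Level of each tested chain in each mouse as log2 of its CPM over the mean CPM of the 3 WT mice, by class; red marks Jmjd8-KO and blue WT, and circle, triangle and square mark replicates 1, 2 and 3. Jmjd8-KO replicate 2 (red triangle) is the highest of the 6 mice for 24 of the 32 chains, while for 7 of the 8 basement membrane chains all 3 red points lie above all blue points.

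How abundant each chain was is seen in the deposited RPKM (reads scaled to gene length and library size), the only scale here on which different genes can be set side by side. Col3a1 led with a mean of 475.8 RPKM over 6 mice, followed by Col4a1 at 366.3, Col6a1 at 306.7, Col4a2 at 265.9, Col1a1 at 225.9 and Col1a2 at 208.4 RPKM. Neighbours in this order were close: Col1a1 ranged from 166 to 379 RPKM between mice and Col1a2 from 176 to 339 RPKM, so their order is not fixed by these samples. Col6a2 (191.4), Col15a1 (176.7), Col5a3 (129.6), Col5a1 (67.7), Col18a1 (63.0), Col5a2 (59.6) and Col6a3 (35.5 RPKM) came next, and no chain of the other class exceeded the 20.3 RPKM of Col16a1. Together the 44 chains took 1.52%, 2.25% and 1.61% of the counts in the knockout mice and 1.49%, 1.55% and 1.65% in the WT mice. Thus 5 of the 6 libraries were close together and 1 knockout library was higher.

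**Figure D2:**
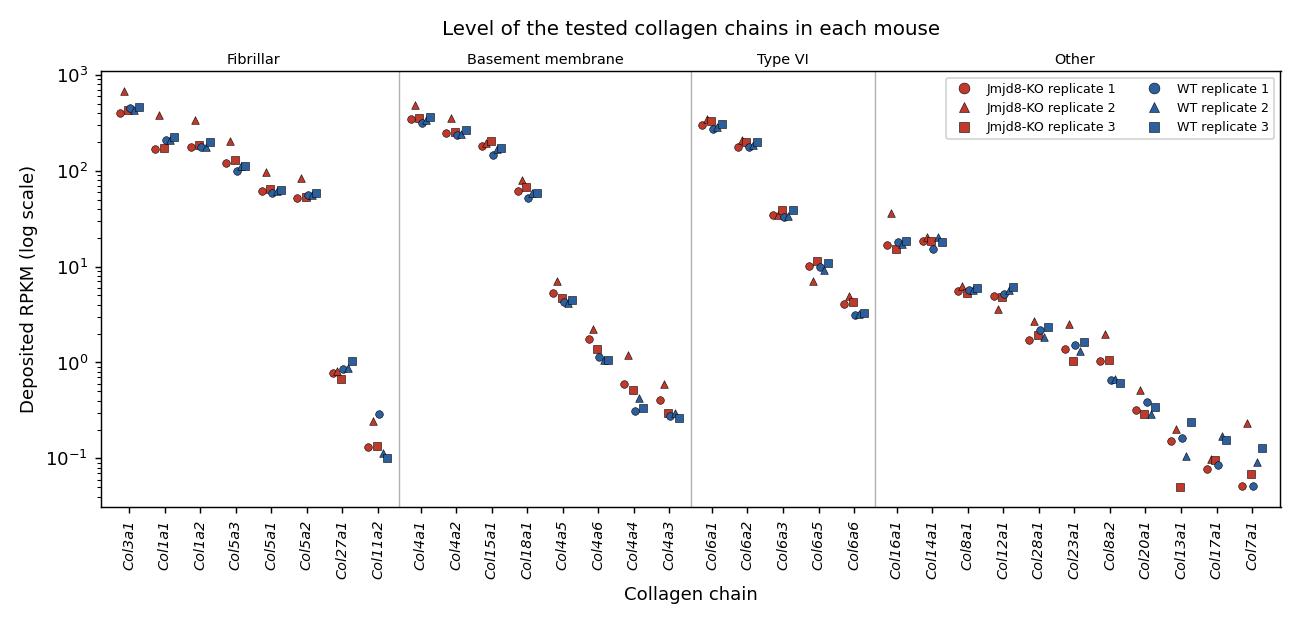
Deposited RPKM of each tested chain in each mouse on a log axis, by class and in order of mean level; colours and symbols are those of genotype and replicate. Mean levels run from 475.8 RPKM for Col3a1 to 0.104 RPKM for Col7a1.

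Most of the chains have a gene structure that the choice by symbol did not use. In GENCODE release M21 (GRCm38), 48.6% of the 627 internal coding exons of the fibrillar genes are exactly 54 bases long, and 83.9% are a multiple of 9 bases, the length that encodes one glycine-led triplet of residues. The same shares are 4.43% and 45.2% for basement membrane genes, 8.25% and 54.4% for type VI genes, 18.1% and 58.5% for the other chains, and 0.444% and 13.7% for all other protein-coding genes. Col8a1, Col8a2 and Col10a1 have no internal coding exon, and Col26a1 has none of 54 bases. An exon of each of 2 fibrillar genes and a shorter one of Col4a1 show the repeat that defines these proteins, with the glycine codons in capitals. They lie at chr11:94944355-94944408 (plus strand), chr1:45334761-45334814 (plus strand) and chr8:11245058-11245084 (minus strand), and hold 6, 6 and 3 glycine codons.
Col1a1: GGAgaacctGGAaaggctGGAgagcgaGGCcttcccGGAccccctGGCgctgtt
Col3a1: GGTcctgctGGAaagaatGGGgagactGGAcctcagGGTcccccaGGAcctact
Col4a1: GGAccaccaGGGttaccaGGAatgaag

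Among the fibrillar chains, the major ones of type I and type III did not separate the genotypes. Col1a1, the alpha 1 chain of type I collagen and of most tensile fibrils, was at 1092, 2493 and 1126 CPM in Jmjd8-KO and 1272, 1326 and 1392 CPM in WT. The knockout mice lay on both sides of WT: replicates 1 and 3 below all 3 WT mice and replicate 2 far above them. The log2 fold change was 0.24 (SE 0.311, edgeR adjusted p = 0.694), and -0.26 (SE 0.0623, adjusted p = 0.0508) without Jmjd8-KO replicate 2. Col1a2, the alpha 2 chain of the same trimer, was at 1021, 1967 and 1062 CPM against 959, 983 and 1087 CPM. Its groups overlapped, and its log2 fold change was 0.42 with that mouse and 0.04 without it (adjusted p = 0.400 and 0.734). Col3a1, whose homotrimer co-assembles with type I in soft tissue, was at 2459, 4180 and 2647 CPM against 2596, 2564 and 2737 CPM. It too was high in Jmjd8-KO replicate 2 alone, with log2 fold changes of 0.23 and -0.05 (adjusted p = 0.544 and 0.723).

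Type V collagen, which sits inside type I fibrils and limits their width, held no chain that passed. Jmjd8-KO replicate 2 was the highest mouse for all 3 of its chains, and the groups overlapped for Col5a2 alone. Col5a3, the alpha 3 chain, was at 820, 1388 and 861 CPM in Jmjd8-KO and 630, 741 and 716 CPM in WT, with no overlap between the groups. The log2 fold change was 0.55 (SE 0.204, edgeR adjusted p = 0.209), and 0.27 (adjusted p = 0.0864) without Jmjd8-KO replicate 2. Col5a1 was at 566, 909 and 601 CPM against 509, 554 and 557 CPM, again without overlap, though Jmjd8-KO replicate 1 was close to the highest WT mice. Its log2 fold change was 0.36 (adjusted p = 0.328), and 0.11 (adjusted p = 0.305) without Jmjd8-KO replicate 2. Col5a2 overlapped, at 379, 617 and 383 CPM against 381, 395 and 405 CPM, with a log2 fold change of 0.22 (adjusted p = 0.547) and -0.05 without that mouse.

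The rest of the fibrillar class was scarce in this fat, and its chains are named after their values were seen. Col27a1 was at 6.59, 6.99 and 5.69 CPM against 6.83, 7.25 and 8.36 CPM (log2 fold change -0.22, adjusted p = 0.454; -0.29 without Jmjd8-KO replicate 2), the lowest log2 fold change of the tested fibrillar chains. Col11a2 was at 0.705 to 2.01 CPM, highest in WT replicate 1, with log2 fold changes of 0.08 and -0.29 without Jmjd8-KO replicate 2 (adjusted p = 0.932 and 0.756). Col2a1, the cartilage collagen, had 0 counts in 4 libraries and 1 count in each of 2, Col11a1 had 0 to 3 counts and Col24a1 2 to 6. These last 3 chains were not tested.

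Basement membrane chains were the class in which the groups most often stood apart. Col4a1 and Col4a2, which join as the standard type IV trimer of vessels and adipocytes, were the most abundant. Col4a1 was at 2548, 3529 and 2569 CPM in Jmjd8-KO and 2184, 2405 and 2543 CPM in WT. The groups did not overlap, but Jmjd8-KO replicate 1 and WT replicate 3 were nearly equal (log2 fold change 0.28, SE 0.144, edgeR adjusted p = 0.341; 0.10 without Jmjd8-KO replicate 2). Col4a2 was at 1767, 2555 and 1792 CPM against 1571, 1663 and 1792 CPM, with overlap (log2 fold change 0.28, adjusted p = 0.364; 0.09 without that mouse).

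The minor type IV chains, Col4a3 to Col4a6, had larger ratios at much lower levels. Col4a6, a chain of the smooth muscle and epithelial type IV networks, was at 13.1, 16.6 and 10.05 CPM in Jmjd8-KO and 7.96, 7.55 and 7.45 CPM in WT. Every knockout mouse was above every WT mouse, and the WT mice were close together. Its log2 fold change was 0.79 (SE 0.189, edgeR adjusted p = 0.0889), and 0.59 (SE 0.135, adjusted p = 0.0466) without Jmjd8-KO replicate 2. The other minor chains are named after their values were seen. Col4a5, the partner chain of both minor networks, was at 38.3, 50.6 and 33.3 CPM against 28.5, 29.2 and 31.0 CPM (log2 fold change 0.46, adjusted p = 0.177; 0.27 without Jmjd8-KO replicate 2). Col4a4 was at 5.11, 10.3 and 4.41 CPM against 2.51, 3.55 and 2.77 CPM, and its log2 fold change of 1.17 (SE 0.35, edgeR adjusted p = 0.141) was 0.69 (adjusted p = 0.0892) without Jmjd8-KO replicate 2. Col4a3, known with Col4a4 and Col4a5 from the filtration barrier of the kidney, was at 3.85, 5.68 and 2.85 CPM against 2.46, 2.74 and 2.37 CPM (log2 fold change 0.71, adjusted p = 0.226; 0.41 without Jmjd8-KO replicate 2). In all 4 minor chains Jmjd8-KO replicate 2 was the highest mouse and the groups did not overlap.

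The 6 type IV genes lie as head to head pairs, a layout in which the members of a pair are read away from a shared start region. In GENCODE M21, Col4a1 and Col4a2 share 22 bases at their starts on chromosome 8, Col4a4 and Col4a3 are 71 bases apart on chromosome 1, and Col4a6 and Col4a5 are 1308 bases apart on chromosome X. The members of a pair had log2 fold changes of 0.28 and 0.28, of 1.17 and 0.71, and of 0.79 and 0.46. These were 0.10 and 0.09, 0.69 and 0.41, and 0.59 and 0.27 without Jmjd8-KO replicate 2. Pairs of collagen genes laid out otherwise had 0.24 and 0.13 (Col6a1 and Col6a2, same direction, 85161 bases apart), 0.23 and 0.22 (Col3a1 and Col5a2, tail to tail, 24614 bases apart), and 0.53 and 0.01 (Col6a6 and Col6a5, same direction, 27917 bases apart). The strand setting of the counting is not given, so reads in the 22 shared bases cannot be assigned to Col4a1 or Col4a2.

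The start regions of the chains with the largest log2 fold changes among basement membrane (Col4a4 and Col4a6), type VI (Col6a6) and other chains (Col8a2) are shown, with Col3a1 as an abundant fibrillar chain for comparison. The sequences are from RefSeq's promoter windows (GRCm38.p6, 250 bases before to 50 after each start), cut to the part outside annotated exons. They lie at chr1:82586850-82586920 (between Col4a4 and Col4a3, read towards Col4a4 on the minus strand), chrX:141474077-141474326 (minus), chr9:105828161-105828335 (minus), chr4:126286544-126286792 (plus) and chr1:45311288-45311537 (plus). Capitals mark matches on either strand to GGGCGG, the core of a GC box, to CCAAT, or to TATAAA.
Col4a4 and Col4a3: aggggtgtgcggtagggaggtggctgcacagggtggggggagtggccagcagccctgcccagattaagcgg
Col4a6: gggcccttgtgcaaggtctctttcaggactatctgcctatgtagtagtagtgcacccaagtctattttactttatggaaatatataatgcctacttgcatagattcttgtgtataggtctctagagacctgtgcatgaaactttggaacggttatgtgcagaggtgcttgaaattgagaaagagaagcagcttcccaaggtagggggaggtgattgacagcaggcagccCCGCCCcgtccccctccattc
Col6a6: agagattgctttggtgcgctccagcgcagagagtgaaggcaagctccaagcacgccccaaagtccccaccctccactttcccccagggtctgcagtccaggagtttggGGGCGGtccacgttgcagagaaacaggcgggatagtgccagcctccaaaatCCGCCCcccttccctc
Col8a2: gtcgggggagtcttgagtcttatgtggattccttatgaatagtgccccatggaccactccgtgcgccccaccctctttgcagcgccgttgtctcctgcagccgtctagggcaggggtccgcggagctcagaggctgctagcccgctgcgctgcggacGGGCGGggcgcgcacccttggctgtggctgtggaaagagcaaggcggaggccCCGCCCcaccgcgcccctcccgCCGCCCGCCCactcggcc
Col3a1: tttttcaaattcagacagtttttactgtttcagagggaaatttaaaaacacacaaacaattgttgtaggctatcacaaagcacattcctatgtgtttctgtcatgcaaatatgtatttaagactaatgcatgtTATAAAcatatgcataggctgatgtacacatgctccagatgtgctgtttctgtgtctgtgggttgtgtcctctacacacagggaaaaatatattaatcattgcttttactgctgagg

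Of these 5 stretches, those of Col4a6, Col6a6 and Col8a2 hold GGGCGG, that of Col3a1 holds TATAAA, and the 71 bases between Col4a4 and Col4a3 hold none of the 3 motifs. The promoter table held 35 of the 44 chains, in 38 windows. GGGCGG was in 23 of those 38 windows, of 22 genes, and in 35.6% of all 32817 windows of this length. CCAAT was in 13 of the 38, of 13 genes, and in 37.4% of all windows. TATAAA was in 5 of the 38, of 5 genes, and in 13.6% of all windows. A match describes the letters and says nothing of binding.

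The multiplexins complete the basement membrane class. Col15a1, which bridges basement membranes to fibrils, was at 1072, 1137 and 1179 CPM in Jmjd8-KO and 811, 949 and 958 CPM in WT. All 3 knockout mice were above all WT mice, and here Jmjd8-KO replicate 2 was not the highest. Its log2 fold change was 0.32 (SE 0.0915, edgeR adjusted p = 0.133), and 0.31 without that mouse (adjusted p = 0.0862). Col18a1, the source of endostatin and named after its value was seen, was at 398, 520 and 425 CPM against 309, 364 and 356 CPM (log2 fold change 0.38, adjusted p = 0.157; 0.26 without Jmjd8-KO replicate 2).

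Type VI held the 1 chain that passed. Col6a6 encodes a long chain that can take the place of Col6a3 in the type VI trimer. It was at 33.9, 41.0 and 34.8 CPM in Jmjd8-KO and 24.1, 25.7 and 25.9 CPM in WT, or 36.6 ± 3.84 against 25.2 ± 0.987 CPM (SD, n = 3 each). The spread within each group was small beside the gap between them. Col6a6 rose 1.45-fold (log2 fold change 0.53, SE 0.0999, edgeR adjusted p = 0.0496), higher in 3 of 3 knockout mice. It passed without Jmjd8-KO replicate 2 (0.44, adjusted p = 0.0158) and did not pass without any of the other 5 mice, among them WT replicate 1 (adjusted p = 0.179). It also missed the threshold with RLE scaling, library size alone or either other filter on low counts, with log2 fold changes of 0.46 to 0.54. The gene lies on the minus strand at chr9:105687809-105828160, and 63 bases of its exons are overlapped by Gm38314 on the opposite strand.

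The core type VI chains, Col6a1, Col6a2 and Col6a3, had smaller log2 fold changes than Col6a6, and none passed. Col6a1 was at 1301, 1532 and 1449 CPM in Jmjd8-KO and 1133, 1225 and 1274 CPM in WT, without overlap but with Jmjd8-KO replicate 1 close to WT replicate 3. Its log2 fold change was 0.24 (SE 0.0911, edgeR adjusted p = 0.227), and 0.18 without Jmjd8-KO replicate 2. Col6a2 was at 1179, 1404 and 1318 CPM against 1098, 1192 and 1273 CPM, with overlap (0.13, adjusted p = 0.495; 0.07 without Jmjd8-KO replicate 2). Col6a3, whose C-terminal fragment is the adipokine endotrophin, was at 410, 414 and 468 CPM against 368, 393 and 440 CPM, also with overlap (0.10, SE 0.096, adjusted p = 0.578; 0.13 without that mouse). Col6a5, named after its value was seen, was at 105, 73.1 and 118 CPM against 95.8, 90.8 and 106 CPM, where Jmjd8-KO replicate 2 was the lowest mouse (0.01, adjusted p = 0.974; 0.19 without it), and Col6a4, with 5 to 13 counts per library, was not tested.

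In the remaining class Col8a2 had the largest log2 fold change, with all mice and without Jmjd8-KO replicate 2. It encodes a short-chain network collagen known from the corneal endothelium and vessel walls, and was at 4.95, 9.55 and 4.99 CPM in Jmjd8-KO and 2.95, 3.14 and 2.77 CPM in WT. The groups did not overlap, and Jmjd8-KO replicate 2 was 1.92-fold the mean of the other knockout mice. The log2 fold change was 1.14 (SE 0.290, edgeR adjusted p = 0.101), and 0.75 (SE 0.153, adjusted p = 0.0349) without that mouse. Col8a1, the other chain of this type and named after its value was seen, was at 31.8, 35.5 and 30.0 CPM against 29.9, 30.9 and 32.4 CPM (0.06, SE 0.0925, adjusted p = 0.740; -0.01 without Jmjd8-KO replicate 2).

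The fibril-associated chains, which coat fibrils with interrupted helices, did not separate the groups. Col12a1 was at 64.5, 47.4 and 62.0 CPM in Jmjd8-KO and 62.8, 72.3 and 75.9 CPM in WT, with overlap through WT replicate 1 (log2 fold change -0.28, SE 0.134, adjusted p = 0.304; -0.15 without Jmjd8-KO replicate 2). Col14a1 was at 131, 147 and 131 CPM against 102, 141 and 123 CPM (0.15, adjusted p = 0.517; 0.10 without that mouse). Col16a1 was at 96.3, 209 and 88.2 CPM against 97.6, 96.4 and 101 CPM, where Jmjd8-KO replicate 2 was the highest mouse and the other knockout mice were below all WT mice (0.41, SE 0.314, adjusted p = 0.498; -0.09 without it). The other tested chains of the class, Col7a1, Col13a1, Col17a1, Col20a1, Col23a1 and Col28a1, had log2 fold changes of -0.53 (Col17a1) to 0.44 (Col7a1) and adjusted p from 0.436 to 0.869. Without Jmjd8-KO replicate 2 all 6 were negative: Col7a1 went from 0.44 to -0.53, Col23a1 from 0.21 to -0.24, Col20a1 from 0.22 to -0.09 and Col28a1 from 0.07 to -0.16, while Col13a1 went from -0.25 to -0.67 and Col17a1 from -0.53 to -0.60.

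Of the 12 chains that were not tested, some had their highest count, well above the other libraries, in WT replicate 1. Col25a1, a transmembrane collagen of neurons, had 88 counts there and 2 to 5 in the other 5 libraries. Col9a3, a chain of cartilage type IX collagen, had 36 there against 3 to 16, and 234 of its exon bases are overlapped by Tcfl5. Col19a1 had 14 there against 0 to 7, and Col26a1 had 15 against 4 to 8. WT replicate 1 is the library with 961 CPM of neuronal markers, and the part of this in those chains was not tested. Col9a1 had 0 counts in every library, which allows up to 3 counts in each. Col9a2 had 0 to 3, and Col10a1 and Col22a1 had 0 to 11.

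**Figure D3:**
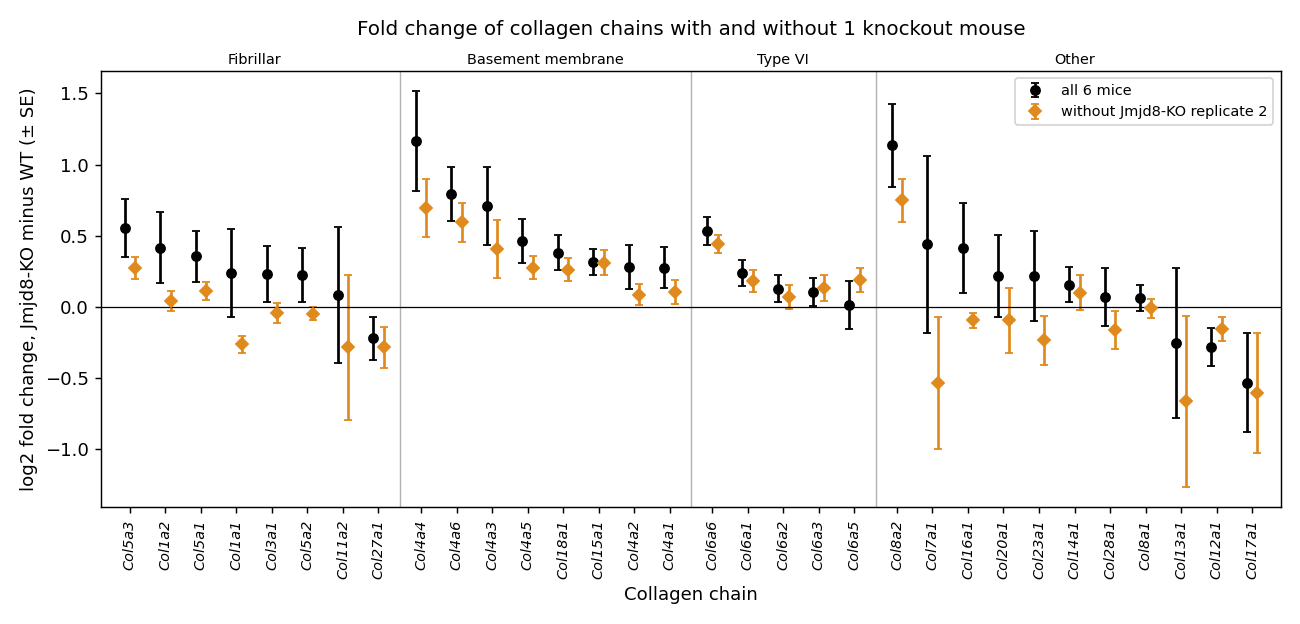
Log2 fold change of each tested chain, Jmjd8-KO minus WT, with its SE, in edgeR's fit of all 6 mice (black circles) and without Jmjd8-KO replicate 2 (orange diamonds). Leaving out that mouse takes Col1a1 from 0.24 to -0.26 and Col16a1 from 0.41 to -0.09, while Col4a6, Col6a6 and Col8a2 stand at 0.59, 0.44 and 0.75 without it.

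Without Jmjd8-KO replicate 2, Col4a6, Col6a6 and Col8a2 passed as higher, 3 of 34 chains tested, and none passed as lower. In that fit 4.52% of all genes passed as higher, 4.82% as lower and 9.34% in either direction, so the count of chains has to be read against a higher background. Without WT replicate 1 no chain passed, and of all genes 0.0139% passed as higher, 0.104% as lower and 0.118% either way; at an unadjusted p under 0.05 it gave 5 chains higher and 2 lower, beside 5.81% and 7.38% of all genes. With both left out, 8 of 31 chains passed as higher (Col4a4, Col4a5, Col4a6, Col5a3, Col6a6, Col8a2, Col15a1 and Col18a1) and 2 as lower (Col1a1 and Col12a1), where 10.1% of all genes passed as higher, 9.72% as lower and 19.8% either way.

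The excess of Jmjd8-KO replicate 2 was itself uneven across the chains. Relative to the mean of Jmjd8-KO replicates 1 and 3, its CPM was 2.25-fold for Col1a1, 1.89-fold for Col1a2, 1.64-fold for Col3a1, 1.65-fold for Col5a3 and 1.38-fold for Col4a1. For Col6a1 it was 1.11-fold, for Col15a1 1.011-fold, for Col6a3 0.943-fold, for Col12a1 0.749-fold and for Col6a5 0.656-fold. The median was 1.64 for fibrillar, 1.42 for basement membrane, 1.11 for type VI and 1.72 for other chains, against 0.992 over all genes tested. This mouse was the highest of the 6 for 24 of the 32 chains, and for 32.1% of all genes tested.

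Other measures moved with that excess. Genes richer in G and C were relatively higher in Jmjd8-KO replicate 2: the median ratio to the other knockout mice was 0.866 in the fifth of genes with the least GC and 1.18 in the fifth with the most, and Spearman's rho between GC content and the ratio was 0.35 across 14013 genes, which share these libraries and are not independent. Collagen transcripts are GC-rich, with a median of 58.5% for the tested fibrillar chains and 56.2% for all 32, against 50.2% over all genes. At the GC content of the fibrillar chains the trend of all genes gives a median of 1.19, and the chains stood a median of 1.47-fold above it; type VI chains stood at 0.982 of it. After a correction of each library for GC content, chosen after seeing the data, Col6a6 passed (log2 fold change 0.52, edgeR adjusted p = 0.0364) and no other chain did, where 1.15% of all genes passed as higher and 1.8% as lower. At an unadjusted p under 0.05 that fit gave 9 chains higher and 0 lower, beside 10.1% and 10.6% of all genes, and the median log2 fold change of the fibrillar chains was 0.22.

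**Figure D4:**
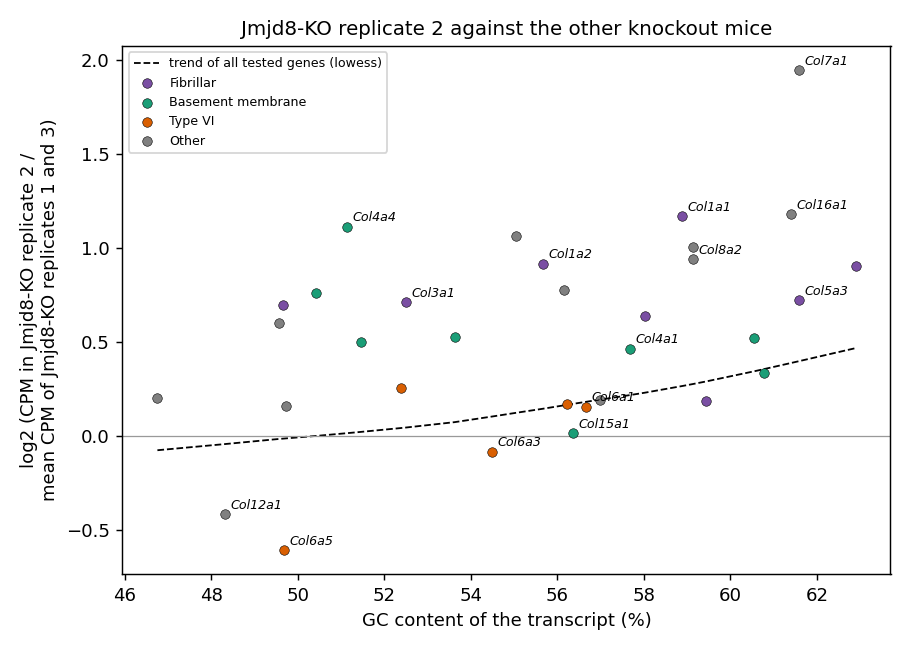
Log2 ratio of the CPM in Jmjd8-KO replicate 2 to the mean of the other 2 knockout mice, against the GC content of the transcript, for the 32 tested chains coloured by class; the dashed line is the lowess trend of all tested genes. Most fibrillar chains lie above the trend, and Col6a1, Col6a2 and Col6a3 lie on or below it.

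Lists of markers of cells that make collagen differed in how they stood in Jmjd8-KO replicate 2. Of 12 fibroblast and progenitor markers, 9 were lowest among the knockout mice in Jmjd8-KO replicate 2 and 2 were highest, with a median ratio of 0.796. Their summed level was nevertheless highest there, at 11517 CPM against 8990 and 9162 CPM in the other knockout mice and 7321 to 7966 CPM in WT, and Gsn, the actin-severing protein gelsolin, made up 10428 CPM of it. Summed endothelial markers, 10 genes, were 1136 CPM there and 964 to 1035 CPM in the other 5 libraries. Summed mural cell markers, also 10 genes, were 936 CPM there and 874 to 978 CPM elsewhere. By gene, 6 of the 10 endothelial markers were highest among the knockout mice in Jmjd8-KO replicate 2 and 3 were lowest (median ratio 1.21). Mural markers had 5 highest and 4 lowest there (1.04), adipocyte markers 6 and 4 (1.03) and mesothelial markers 4 and 6 (0.938). Jmjd8-KO replicate 2 was the highest of the knockout mice for 42.7% of all genes tested, the background for these counts of highest markers. In bulk tissue, fewer cells of a type and less RNA per cell cannot be told apart, and the part of GC content or cell makeup in the excess was not tested.

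Between the genotypes, markers of adipocytes, macrophages and mesothelium held genes that passed. Over all genes tested, 0.789% passed as higher and 1.33% as lower with all mice. Without Jmjd8-KO replicate 2 these shares were 4.52% and 4.82%. At an unadjusted p under 0.05 with all mice they were 8.99% and 10.1%. Without WT replicate 1 no marker of these lists passed, where 0.118% of all genes did. Of 10 adipocyte markers 2 rose, Retn, the adipokine resistin, and Slc2a4, the insulin-responsive glucose transporter (median of the list 0.34, adjusted p = 0.0392 and 0.0245). Summed levels of the 10 adipocyte markers were 23670 to 27039 CPM in Jmjd8-KO and 20843 to 22423 CPM in WT. Without Jmjd8-KO replicate 2, 5 of 10 passed as higher (median 0.33). At an unadjusted p under 0.05 with all mice, 7 were higher and 1, Lep, was lower. Lep was at 4824, 4950 and 4896 CPM in Jmjd8-KO and 5263, 5834 and 5750 CPM in WT (log2 fold change -0.20, edgeR adjusted p = 0.216). None of the 12 fibroblast and progenitor markers passed (median log2 fold change -0.02), and none of 10 endothelial (0.10) or 10 mural markers (0.09), by edgeR. At an unadjusted p under 0.05 the fibroblast list had 1 gene higher and 2 lower, and the endothelial and mural lists 1 higher and 0 lower each. Without Jmjd8-KO replicate 2 the fibroblast list had 1 gene passing as higher and 2 as lower (median 0.05), and the endothelial and mural lists none (medians -0.0046 and 0.04). Of 10 macrophage markers 5 fell, with summed levels of 1582 to 2014 CPM in Jmjd8-KO and 2448 to 2569 CPM in WT, and 7 passed as lower without Jmjd8-KO replicate 2. Of 10 mesothelial markers 3 rose, with 360 to 400.5 CPM against 218 to 274 CPM, and 8 passed as higher without that mouse. Adipocytes and mesothelium both lay down basement membrane, and their part in the values of the type IV chains was not tested. Epididymal markers summed to 0.101 to 0.348 CPM in Jmjd8-KO and 0.907 to 1.52 CPM in WT, with Lcn5, Lcn9, Defb21 and Adam7 at 0 in all 6 libraries. Of 8 epididymal markers listed, only Crisp1 was tested, at 0 CPM in all 3 knockout mice and 0.504 to 0.811 CPM in WT (edgeR adjusted p = 0.0364). It was scarce and passed the filter on low counts only through the WT libraries, so no conclusion is drawn from this p-value.

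Ratios between chains that meet in one trimer or fibril were steady within most groups. Type I collagen is built mainly of Col1a1 and Col1a2 chains, and the RPKM ratio of Col1a1 to Col1a2 was 0.941, 1.12 and 0.934 in Jmjd8-KO against 1.17, 1.19 and 1.13 in WT. All knockout mice were below all WT mice, by a log2 difference of -0.22 between the group means. The ratio of Col6a1 to Col6a2 was 1.67, 1.65 and 1.66 against 1.56, 1.56 and 1.51, higher in 3 of 3 knockout mice (log2 difference 0.11). The ratio of Col5a1 to Col5a2 was 1.18, 1.16 and 1.24 against 1.05, 1.11 and 1.08, also higher in 3 of 3 (0.14). For these 3 ratios the two-sided exact permutation test gave p = 0.1, the smallest it allows with 3 mice against 3, and 0.2 adjusted over the 6 ratios tested, so none passed.

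The other 3 ratios overlapped between the groups. Col4a1 to Col4a2, the pair with a shared start region, was at 1.40, 1.34 and 1.39 against 1.35, 1.41 and 1.38, and the group means differed by a log2 value of -0.00018 (exact permutation p = 1.0). The ratio thus lay between 1.34 and 1.41 in all 6 mice, while Col4a1 ranged from 2184 to 3529 CPM. Col3a1 to Col1a1 was at 2.40, 1.79 and 2.51 against 2.18, 2.06 and 2.10, lowest in Jmjd8-KO replicate 2 (exact permutation p = 0.9). Col6a3 to Col6a1 was at 0.116, 0.0991 and 0.118 against 0.119, 0.118 and 0.127 (exact permutation p = 0.2).

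**Figure D5:**
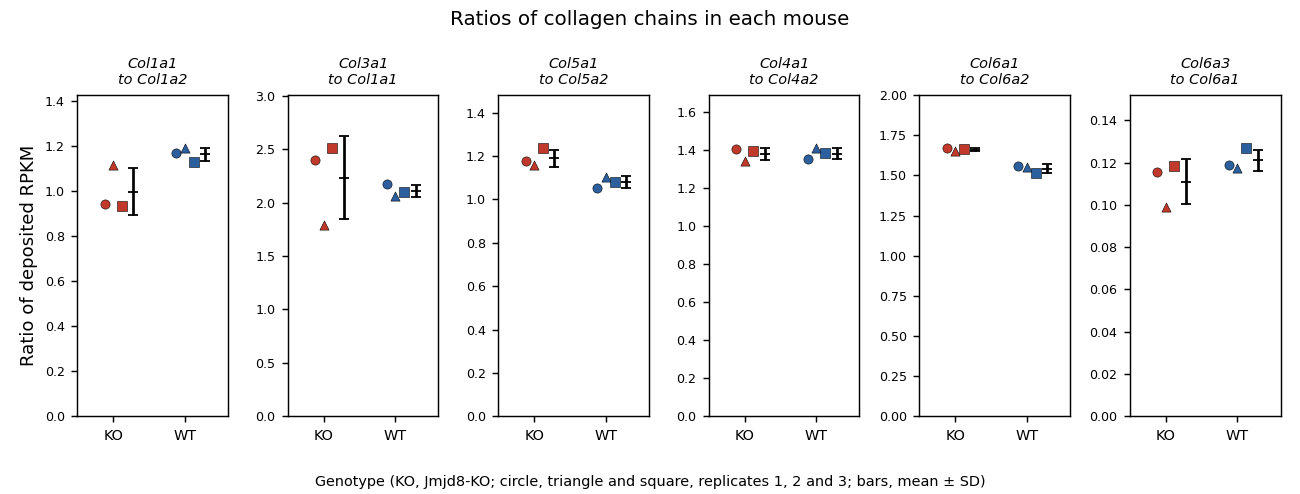
Ratio of the deposited RPKM of 2 chains in each mouse for 6 pairs of chains, with the mean and SD of each group; each axis starts at 0. The knockout points lie wholly below WT for Col1a1 to Col1a2 and wholly above for Col5a1 to Col5a2 and Col6a1 to Col6a2.

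Genes that fold, process, bind and break down collagen were followed as lists chosen for their roles. Of 27 tested genes of procollagen folding and processing, 1 rose and 0 fell (median log2 fold change 0.03), and without Jmjd8-KO replicate 2 1 passed as higher and 2 as lower (0.02). It was P4ha1, a catalytic subunit of the prolyl 4-hydroxylase that stabilises the helix, at 77.1, 80.9 and 82.8 CPM in Jmjd8-KO and 60.2, 61.2 and 62.1 CPM in the WT mice (log2 fold change 0.39, SE 0.0662, edgeR adjusted p = 0.0413). The groups were well apart, with no knockout mouse out of line. Lox, the lysyl oxidase that cross-links fibrils and named after its value was seen, was at 185, 136 and 182 CPM against 248, 244 and 262 CPM (-0.59, adjusted p = 0.0676; -0.46, adjusted p = 0.00743, without Jmjd8-KO replicate 2).

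Laminins, nidogens and other non-collagen proteins of the basement membrane were followed beside its collagens. Of 15 tested genes, 1 rose and 0 fell (median 0.23), and without Jmjd8-KO replicate 2 2 passed as higher and 1 as lower (0.24). Lama2, the laminin alpha 2 chain of muscle and fat basement membranes, was at 138, 117 and 141 CPM in Jmjd8-KO and 85.8, 90.7 and 93.6 CPM in the WT mice (log2 fold change 0.55, SE 0.0927, edgeR adjusted p = 0.0408). Jmjd8-KO replicate 2 was the lowest of the knockout mice for this gene, the reverse of its place for the type IV chains. Of 9 small leucine-rich proteoglycans, which bind fibrils and set their spacing, none passed (median 0.05; 1 higher and 1 lower at an unadjusted p under 0.05), and 8 of 9 were lowest among the knockout mice in Jmjd8-KO replicate 2, where fibrillar chains were highest. Without that mouse 3 passed as higher and 1, Lum, as lower (adjusted p = 0.0061), with a median of 0.27. Podn, podocan, had the smallest p of that list (log2 fold change 0.54, adjusted p = 0.104). None of 17 microfibril and matricellular genes passed (median 0.20; 3 higher and 6 lower at an unadjusted p under 0.05), and Mfap2, a microfibril protein, had the smallest p (-0.65, adjusted p = 0.0556). Of the 17, 4 passed as higher and 2 as lower without Jmjd8-KO replicate 2, with a median of 0.015.

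Receptors and breakdown enzymes held more genes that passed. Of 14 tested receptors and uptake proteins 2 fell and 0 rose (median -0.05), with 3 higher and 4 lower at an unadjusted p under 0.05. Without Jmjd8-KO replicate 2, 4 passed as lower and 0 as higher (median 0.02). Lair1, an inhibitory collagen receptor of leukocytes, was at 10.4, 6.48 and 10.1 CPM in Jmjd8-KO and 23.5, 23.4 and 22.0 CPM in the WT mice (log2 fold change -1.36, SE 0.183, edgeR adjusted p = 0.0264). Cd44, the hyaluronan receptor, which also binds collagen, was at 110, 77.5 and 122 CPM against 199, 207 and 180 CPM (-0.92, adjusted p = 0.0443). Both are also expressed by leukocytes, whose macrophage markers were lower in the same mice; the part of this was not tested.

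Of 11 tested proteases and inhibitors 2 rose and 2 fell (median -0.32), with 3 higher and 6 lower at an unadjusted p under 0.05. Without Jmjd8-KO replicate 2, 2 passed as higher and 6 as lower (median -0.27), with Mmp2, Mmp12, Mmp14 and Timp1 added to the lower ones. Mmp3, stromelysin 1, was at 6.64, 6.08 and 5.17 CPM in Jmjd8-KO and 16.2, 19.2 and 16.9 CPM in the WT mice (log2 fold change -1.55, SE 0.137, edgeR adjusted p = 0.0125). It also passed without WT replicate 1 (adjusted p = 0.0391), the only gene of these lists to do so. Ctsk, the collagen-degrading protease cathepsin K, was at 52.6, 47.1 and 57.0 CPM against 97.6, 86.7 and 97.6 CPM (-0.85, adjusted p = 0.0193). Mmp9, a protease named after its value was seen, went the other way without passing. It was at 6.38, 6.53 and 6.45 CPM in Jmjd8-KO and 4.62, 4.16 and 5.24 CPM in WT (0.46, edgeR adjusted p = 0.165). The inhibitors of metalloproteases Timp3 and Timp4 rose, Timp4 from 113, 145 and 131 CPM to 192, 212 and 196 CPM (0.62, adjusted p = 0.0392) and Timp3 by a log2 fold change of 0.53 (adjusted p = 0.0413). None of 16 profibrotic signalling genes passed (median -0.10; 0 higher and 3 lower at an unadjusted p under 0.05), the smallest p being that of Tgfb1, the growth factor that induces collagen genes in fibroblasts (-0.37, SE 0.0830, adjusted p = 0.0751). Of the 16, 4 passed as lower without Jmjd8-KO replicate 2, Tgfb1 among them, and 0 as higher (median -0.09). The 8 partner genes that passed with all mice also passed without it, with edgeR adjusted p from 0.00392 to 0.0215. In these lists the background for counts at an adjusted p under 0.05 is the share of all genes that passed. It is 2.12% with all mice and 9.34% without Jmjd8-KO replicate 2. For the counts at an unadjusted p under 0.05, by edgeR with all mice, it is 8.99% of all genes higher and 10.1% lower.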

How the data were processed

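STAR, featureCounts and the mm10 build are named, per the submitters' processing notes; no source used here states versions, annotation or strand setting. The authors deposited 1 table with raw counts and RPKM values of 24539 genes in 6 mice. RPKM served only to compare levels between genes and for ratios. Counts were filtered (filterByExpr, minimum count 10), scaled by TMM and tested for genotype with edgeR 4.0.16 (quasi-likelihood, R 4.3.3) over 14322 genes, with Benjamini-Hochberg adjustment and a threshold of 0.05. Standard errors (SE) were taken as |log2 fold change| divided by √F. DESeq2 1.42.0 and limma 3.58.1 were alternatives. The labels number the samples as replicates without saying that each is a separate mouse; they are called mice here, and p-values measure the spread between these samples. The tests were checked on simulated data, drawn without an outlying library or a GC trend. That check does not cover these features of the libraries. Positions and GC content (97.9% of tested genes) are from GENCODE M21.

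Members, classes and lists were chosen with earlier results of these data known. Values in every mouse are given for chains that passed, the 2 most abundant and the 2 with the smallest p of each class, and those in ratios. From each list of partner genes come up to 4 that passed, or the 1 with the smallest p; others are said to be named after their values were seen.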

Additional observations from a re-analysis of the deposited data

How the results depend on the processing

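Counts of genes that passed depended on the setting. Of all genes, 304 passed, against 156 with no filter on low counts, 1039 by DESeq2, 2030 by limma voom with quality weights, 2833 without WT replicate 1 and Jmjd8-KO replicate 2, 1537 with the GC correction without Jmjd8-KO replicate 2, and 0 (without WT replicate 3) to 1351 (without Jmjd8-KO replicate 2) when 1 mouse was left out. A replicate block gave 5, though no label states that the numbers pair the mice. Deviations from the group means of same-numbered mice correlated by -0.018, -0.029 and 0.0082, and those of different-numbered mice by -0.017 to 0.025. With so few mice these values cannot show whether a pairing exists. The 1 chain called higher became 0 with RLE scaling, library size alone, no filter, the stricter filter or the replicate block, 5 by DESeq2, 6 by limma voom, 8 without both mice, 3 with the GC correction without Jmjd8-KO replicate 2, and 0 to 3 when 1 mouse was left out. The chains called lower, 0 in all, were 2 without both mice. The median log2 fold change of the tested chains, 0.24, was 0.06 without Jmjd8-KO replicate 2 (over the 34 chains tested then), 0.04 without both mice, 0.07 by limma voom and 0.07 with the GC correction without Jmjd8-KO replicate 2, and 0.16 to 0.35 under the other settings.

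Some directions reversed. Log2 fold changes by limma voom, without both mice, and with the GC correction without Jmjd8-KO replicate 2 were -0.24, -0.29 and -0.25 for Col1a1, -0.03, -0.055 and -0.038 for Col3a1, -0.039, -0.071 and -0.052 for Col5a2, and -0.066, -0.10 and -0.057 for Col16a1. That of Col14a1 was -0.014 without both mice. When 1 mouse was left out, the lowest and highest values were -0.26 and 0.44 for Col1a1, -0.05 and 0.37 for Col3a1, -0.05 and 0.34 for Col5a2, -0.09 and 0.63 for Col16a1, and 0.03 and 0.26 for Col14a1. The cause was not tested. The log2 difference in the Col3a1 to Col1a1 ratio was then -0.026 to 0.22 and in the Col4a1 to Col4a2 ratio -0.015 to 0.019.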
